A study of Mus musculus with 6 samples.

Results

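The genes described here are 10 receptors and enzymes of purinergic and adenosine signaling, out of 23557 genes measured in mouse tumors. They are a list of names, with no threshold on their values, drawn up with earlier results of these data known. The list holds the nucleotide receptors P2ry14, P2ry6, P2ry12, P2rx4 and P2rx7, the ectonucleotidases Entpd1 and Nt5e, the adenosine deaminase Ada, and the adenosine receptors Adora2a and Adora2b. The tumors came from CT26, a single mouse colon carcinoma line (BALB/c background), of which 500000 cells were injected under the skin of 7-week-old female BALB/c mice. H89 mice received intraperitoneal H89, an inhibitor of protein kinase A that also acts on other kinases, at 10 mg/kg in NaCl, 2 times a week from day 6 after the cells. NaCl mice received the vehicle by the same route, and no allele or other agent told the groups apart. Tumors of 3 mice per group were taken whole on day 14, so each library mixes CT26 cells with the host cells of the tumor.

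Cells release ATP, UTP and UDP-sugars when they are stressed, and these nucleotides act on P2X channels and P2Y receptors of neighbouring cells. On the cell surface, CD39 (Entpd1) strips ATP to AMP and CD73 (Nt5e) turns AMP into adenosine, which dampens immune cells in many tumors. The adenosine receptors Adora2a and Adora2b couple to Gs and raise cAMP, the messenger that activates protein kinase A, whereas P2ry12 and P2ry14 couple to Gi and lower it.

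Values are counts per 1000000 (CPM) after TMM scaling between libraries, made from estimated counts that summed to between 27067349 and 31958793 per tumor. H89 was compared with NaCl by edgeR's quasi-likelihood test over the 13118 genes that averaged 0.5 CPM or more, and a gene was called at a Benjamini-Hochberg adjusted p under 0.05 over all of them. All 10 genes passed this filter. Pairs of NaCl tumors differed by a chi-square of 25 to 39.4 per degree of freedom over genes. H89-treated tumors 1 and 2 differed by 32.7, but H89-treated tumor 3 differed from the others by 95.9 and 75.7 and therefore stands apart from them.

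P2ry14, a receptor for UDP-glucose and other UDP-sugars, lies on the minus strand at chr3:59113855-59153618 (GRCm38). Promoter windows of 300 bases, from 250 before to 50 after an annotated start, were found in RefSeq (GRCm38.p6) for 8 of the 10 genes, in 13 windows. Those of P2ry14 (chr3:59153443-59153742, minus strand, the outermost of its annotated starts) and of P2ry12 (chr3:59262936-59263235, minus strand) are shown because both genes sit in the same cluster and had different fold changes. That of P2rx4 (chr5:122707294-122707593, plus strand) is shown because it holds the most matches to TGACG, the core of the cAMP response element. Capitals mark those matches, which read CGTCA on the printed strand.
P2ry14: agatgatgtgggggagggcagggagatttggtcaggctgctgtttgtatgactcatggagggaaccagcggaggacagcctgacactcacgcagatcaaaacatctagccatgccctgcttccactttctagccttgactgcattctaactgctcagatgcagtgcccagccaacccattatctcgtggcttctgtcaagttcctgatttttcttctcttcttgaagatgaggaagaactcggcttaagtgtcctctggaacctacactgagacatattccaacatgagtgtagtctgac
P2ry12: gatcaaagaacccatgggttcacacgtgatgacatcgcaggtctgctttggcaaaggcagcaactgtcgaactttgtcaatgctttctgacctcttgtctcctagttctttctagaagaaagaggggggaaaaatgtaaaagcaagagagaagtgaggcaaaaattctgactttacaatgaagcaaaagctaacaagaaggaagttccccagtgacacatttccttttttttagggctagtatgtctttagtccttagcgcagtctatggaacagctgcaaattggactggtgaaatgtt
P2rx4: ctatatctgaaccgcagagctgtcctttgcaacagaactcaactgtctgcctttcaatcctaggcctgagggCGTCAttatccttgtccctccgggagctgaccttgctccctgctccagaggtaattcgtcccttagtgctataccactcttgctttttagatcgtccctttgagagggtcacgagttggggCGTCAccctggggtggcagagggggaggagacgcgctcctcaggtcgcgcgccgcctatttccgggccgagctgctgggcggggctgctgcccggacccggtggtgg
The P2rx4 matches begin at positions -178 and -57 from the annotated start. Both strands were searched for 4 motifs. TGACG was found in windows of 2 of the 8 genes, P2rx4 and Entpd1, and 20.8% of all 32841 promoter windows hold it. The whole element TGACGTCA, which contains this core and is held by 1.79% of all windows, was in 0 of the 13 windows. The interferon-stimulated response element, held by 3.44% of all windows, was in 0 of them too. The STAT motif TTCNNNGAA, held by 8.3% of all windows, was in the Ada window alone, as TTCCGGGAA at position -90. Such matches describe the letters and do not show a bound site.

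Among the 10 genes, H89-treated tumors differed from NaCl tumors in P2ry14 alone at this threshold. Of all genes tested, 1.59% were called, with 0.861% called higher and 0.724% called lower in H89-treated tumors. P2ry14 was at 4.14, 5.22 and 3.58 CPM in the NaCl tumors and at 7.81, 9.70 and 10.3 CPM in the H89-treated tumors. Each H89-treated tumor was above each NaCl tumor, and H89-treated tumor 3, which stands apart, was the highest. Its mean level rose from 4.32 ± 0.834 to 9.28 ± 1.30 CPM (SD over 3 tumors per group). The log2 fold change was 1.10 (SE 0.19, 95% interval 0.66 to 1.55, edgeR adjusted p = 0.0443). An exact two-sided permutation test of its log2 CPM gave p = 0.1, the smallest that 3 tumors against 3 allow. The gene ranked 135 by p among the genes tested and is one that the study itself picked out in these tumors, so its direction is not independent evidence.

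The call of P2ry14 was lost with any single tumor left out. Such fits called only 0 to 12 of all genes tested, so this loss is not particular to P2ry14. In these fits, the log2 fold change of P2ry14 lay between 0.99 and 1.26 and the edgeR adjusted p between 0.0667 and 0.142. Its unadjusted edgeR p lay between 0.000539 and 0.00248. Without H89-treated tumor 3, the log2 fold change was 1.02 with an adjusted p of 0.0912. At these depths P2ry14 had between 98 and 339 counts per tumor.

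The other P2Y receptors of the set did not pass the test. P2ry6, the UDP receptor of macrophages and epithelium (chr7:100937630-100974649, minus strand), was at 36.0, 59.0 and 53.7 CPM in NaCl tumors and at 38.8, 44.9 and 40.2 CPM in H89-treated tumors. The groups overlapped, since NaCl tumor 1 was lower than every other tumor, and the log2 fold change was -0.26 (SE 0.17, 95% interval -0.66 to 0.14, edgeR adjusted p = 0.38). Without NaCl tumor 1 it was -0.45, with an adjusted p of 0.108. P2ry12, the ADP receptor of platelets and microglia that is also found on some macrophages (chr3:59216272-59262871, minus strand), was at 1.73, 5.22 and 5.52 CPM in NaCl tumors and at 4.39, 6.02 and 3.92 CPM in H89-treated tumors. NaCl tumor 1 was again the lowest, and the log2 fold change of 0.20 (SE 0.40, 95% interval -0.73 to 1.14, edgeR adjusted p = 0.785) turned to -0.17 without it.

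**Figure D1:**
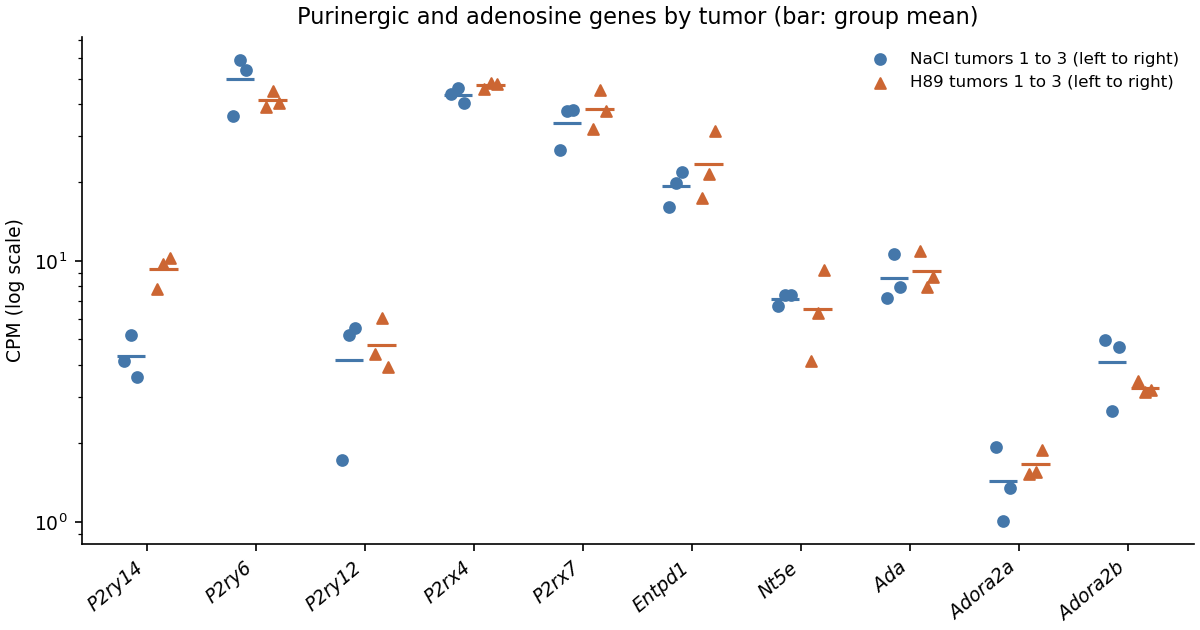
CPM on a log axis for each of the 10 genes, with 1 point per tumor (NaCl and H89 tumors 1 to 3 from left to right) and a bar at each group mean. P2ry14 is the only gene whose 3 H89-treated tumors, at 7.81 to 10.3 CPM, all lie above the 3 NaCl tumors, at 3.58 to 5.22 CPM.

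P2ry14 and P2ry12 belong to 1 cluster of receptor genes on chromosome 3, with starts 109253 bases apart. Gpr171, P2ry14, P2ry13 and P2ry12 all lie on the minus strand inside Med12l (chr3:59005825-59318682, plus strand), a gene for a subunit of the Mediator kinase module. The exons of Med12l overlap those of P2ry12 and of Igsf10 but not those of P2ry14. The deposited values of both P2ry14 and P2ry12 were whole counts in every tumor, and those of Med12l and Igsf10 lay up to 0.368 from one. Where exons overlap, reads of both genes cannot be told apart here, as no source used here gives the strand setting of the counting.

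None of Med12l, Igsf10, Gpr171 and P2ry13 was called. Of these 4 genes, 2 had H89-treated tumors all above the NaCl tumors, as had 15.2% of all genes tested. Med12l was at 0.828, 1.16 and 1.02 CPM in NaCl tumors and at 1.53, 2.25 and 1.55 CPM in H89-treated tumors, with groups that did not overlap and a log2 fold change of 0.83 (SE 0.27, edgeR adjusted p = 0.122). Igsf10, which encodes an immunoglobulin superfamily protein, also had groups that did not overlap, at 0.936 to 1.17 CPM against 1.43 to 2.19 CPM (log2 fold change 0.67, SE 0.27, edgeR adjusted p = 0.177). Gpr171, a Gi-coupled receptor of T cells, was at 3.17 to 3.58 CPM in NaCl tumors and at 3.56 to 6.39 CPM in H89-treated tumors, and its groups overlapped (log2 fold change 0.50, SE 0.25, edgeR adjusted p = 0.255). Without H89-treated tumor 3, the log2 fold changes of Gpr171 and Igsf10 were 0.21 and 0.44. P2ry13, another ADP receptor, spread from 2.70 to 9.22 CPM within the NaCl group alone, with a log2 fold change of 0.13 (SE 0.41, edgeR adjusted p = 0.874).

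Within a tumor, P2ry14 exceeded P2ry12 by 1.26, 0.00 and -0.62 on the log2 CPM scale in NaCl tumors and by 0.83, 0.69 and 1.39 in H89-treated tumors, so this log2 ratio overlapped between groups. The log2 CPM ratio of P2ry14 to Med12l, chosen after the values had been seen, averaged 2.10 ± 0.27 in NaCl tumors and 2.40 ± 0.32 in H89-treated tumors (SD over 3 tumors per group) and also overlapped.

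**Figure D2:**
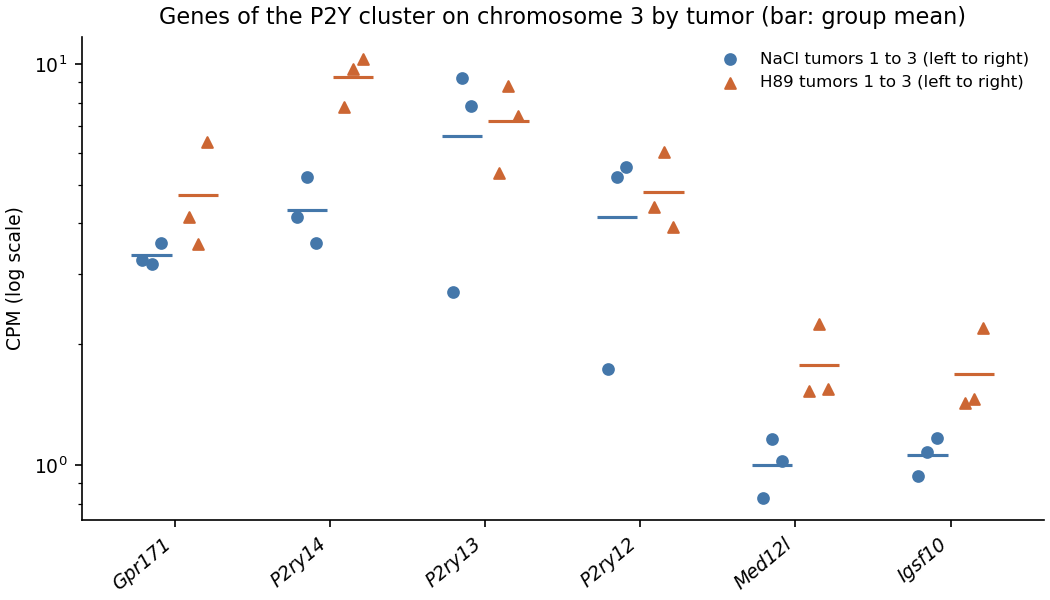
CPM on a log axis for Gpr171, P2ry14, P2ry13, P2ry12, Med12l and Igsf10, with 1 point per tumor and a bar at each group mean. P2ry13 and P2ry12 are lowest in NaCl tumor 1, at 2.70 and 1.73 CPM, while P2ry14, Med12l and Igsf10 have H89-treated tumors that all lie above the NaCl tumors. The same holds for 15.2% of all genes tested, and Med12l and Igsf10 were not called.

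The ATP-gated channels P2rx4 and P2rx7 are neighbours on chromosome 5, and 16112 bases lie between the end of P2rx7 (chr5:122643911-122691432, plus strand) and the start of P2rx4 (chr5:122707544-122729738, plus strand). P2rx4, a channel found on macrophages and on intracellular vesicles, was at 43.7, 45.9 and 40.4 CPM in NaCl tumors and at 45.6, 47.9 and 47.8 CPM in H89-treated tumors. The groups overlapped by a single pair of tumors, and the log2 fold change was 0.12 (SE 0.08, 95% interval -0.07 to 0.31, edgeR adjusted p = 0.404). P2rx7, the channel that high ATP opens and that feeds inflammasome activation in myeloid cells, was at 26.5, 37.5 and 37.8 CPM in NaCl tumors and at 32.1, 45.2 and 37.6 CPM in H89-treated tumors. The log2 fold change of P2rx7 was 0.18 (SE 0.17, 95% interval -0.22 to 0.57, edgeR adjusted p = 0.559). NaCl tumor 1 was the lowest and H89-treated tumor 2 the highest, and the log2 fold change was 0.02 without the former, 0.04 without the latter and 0.29 without H89-treated tumor 1. The log2 CPM ratio of P2rx7 to P2rx4 averaged -0.37 ± 0.32 in NaCl tumors and -0.31 ± 0.21 in H89-treated tumors (SD over 3 tumors per group), with overlap.

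The enzymes that make and remove extracellular adenosine did not pass the test. Entpd1 (chr19:40612366-40741602, plus strand) was at 16.1, 19.8 and 21.9 CPM in NaCl tumors and at 17.4, 21.6 and 31.5 CPM in H89-treated tumors. The highest value belonged to H89-treated tumor 3, and the log2 fold change of 0.29 (SE 0.22, 95% interval -0.22 to 0.80, edgeR adjusted p = 0.45) was 0.01 without that tumor. Nt5e (chr9:88327197-88372092, plus strand) was at 6.69, 7.39 and 7.42 CPM in NaCl tumors and at 4.14, 6.30 and 9.25 CPM in H89-treated tumors. The H89-treated tumors lay on both sides of the NaCl tumors, with a log2 fold change of -0.12 (SE 0.27, 95% interval -0.75 to 0.50, edgeR adjusted p = 0.802), which became 0.12 without H89-treated tumor 1 and -0.46 without H89-treated tumor 3. Ada, which turns adenosine into inosine (chr2:163726584-163750239, minus strand), was at 7.20, 10.6 and 7.97 CPM in NaCl tumors and at 10.9, 7.91 and 8.67 CPM in H89-treated tumors. Its groups overlapped, and the log2 fold change was 0.09 (SE 0.19, 95% interval -0.36 to 0.54, edgeR adjusted p = 0.794).

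The log2 CPM ratio of Nt5e to Entpd1, that is, of the second enzyme of the chain to the first, was -1.27, -1.43 and -1.56 in NaCl tumors and -2.08, -1.78 and -1.77 in H89-treated tumors. Relative to Entpd1, Nt5e was thus lower in each H89-treated tumor than in any NaCl tumor, with means of -1.42 ± 0.15 and -1.87 ± 0.17 (SD over 3 tumors per group). This ratio is given as a description and was not tested. The share of other gene pairs whose ratio did not overlap was not counted, and 30.7% of single genes tested did not overlap. The log2 CPM ratio of Ada to Nt5e ranged from 0.10 to 0.52 in NaCl tumors and from -0.09 to 1.39 in H89-treated tumors.

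Both adenosine receptors that raise cAMP were low in CPM, a scale that is not per length, and did not pass the test. Adora2a, the main adenosine receptor of lymphocytes (chr10:75316877-75334784, plus strand), was at 1.94, 1.01 and 1.35 CPM in NaCl tumors and at 1.53, 1.55 and 1.89 CPM in H89-treated tumors. The NaCl tumors held both the highest and the lowest value, and the log2 fold change was 0.21 (SE 0.29, 95% interval -0.46 to 0.88, edgeR adjusted p = 0.686). It was 0.49 without NaCl tumor 1 and 0.01 without NaCl tumor 2, and leaving out H89-treated tumor 3 gave 0.10. Adora2b, a receptor of lower affinity found on many stromal and epithelial cells (chr11:62248984-62266453, plus strand), was at 4.97, 2.65 and 4.68 CPM in NaCl tumors and at 3.46, 3.13 and 3.19 CPM in H89-treated tumors. NaCl tumor 2 lay below all H89-treated tumors and the other NaCl tumors above them, with a log2 fold change of -0.33 (SE 0.26, 95% interval -0.92 to 0.26, edgeR adjusted p = 0.454). It was -0.57 without NaCl tumor 2 and -0.17 without NaCl tumor 1. The log2 CPM ratio of Adora2a to Adora2b was -1.35, -1.39 and -1.79 in NaCl tumors and -1.17, -1.01 and -0.76 in H89-treated tumors, so it did not overlap between groups, with means of -1.51 ± 0.24 and -0.98 ± 0.21 (SD over 3 tumors per group). This ratio was not tested either, and the share of other gene pairs without overlap was not counted.

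Over the 10 genes, the median log2 fold change was 0.15, against 0.004 over all genes tested, and 7 estimates were positive and 3 negative. The groups did not overlap for 1 of the 10 genes, where 30.7% of all genes tested had groups that did not overlap (15.2% with H89-treated tumors all above, 15.5% all below). For the 9 genes that were not called, the intervals above bound the change that these 3 tumors per group leave possible, and they are narrowest for P2rx4 and widest for P2ry12. The exact permutation p of these 9 genes lay between 0.2 and 0.8.

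**Figure D3:**
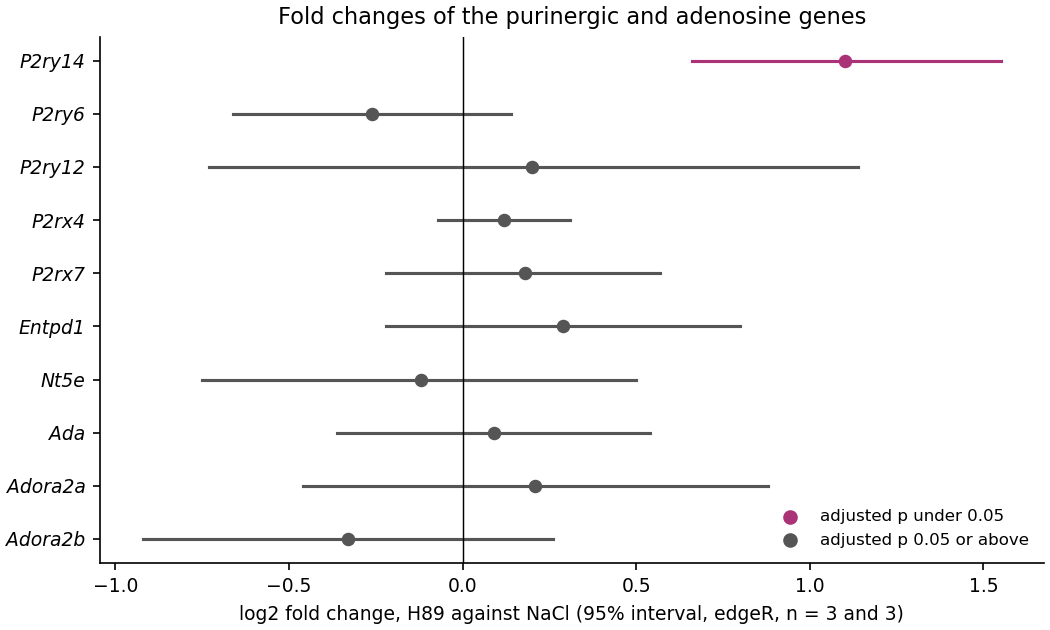
Log2 fold change of H89 against NaCl for the 10 genes, with 95% intervals from edgeR (n = 3 and 3). Only the interval of P2ry14, from 0.66 to 1.55, belongs to a gene with an adjusted p under 0.05, and the other intervals include 0.

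Between genes, levels were compared per length, as CPM divided by the union of exons and rescaled to 1000000 per tumor (TPM), with lengths of GENCODE M21. The mean TPM over the 6 tumors was 50.8 for P2ry6, 20.9 for P2rx4, 19.7 for P2rx7, 14.3 for Ada, 12.5 for Entpd1, 6.38 for Adora2b, 5.74 for P2ry12, 2.58 for Nt5e, 2.04 for P2ry14 and 1.64 for Adora2a. P2ry6 stood above P2rx4 without overlap of any tumor (36.5 to 63.2 against 17.4 to 24.4 TPM), and Entpd1 above Adora2b (8.45 to 19.8 against 4.44 to 7.87 TPM). All other neighbours in this order overlapped, and the order was the same with the longest transcript of each gene as its length, which moved the mean TPM of P2rx4 to 28.5 and that of Nt5e to 4.21. P2ry14, the gene with a called change, was thus among the least abundant. Apart from the length of each gene, TPM differs from CPM by a factor per tumor that all genes share, and it has no TMM factor. On this TPM scale P2rx4 was at 17.4 to 20.2 in NaCl tumors and at 21.3 to 24.4 in H89-treated tumors. Its groups did not overlap, unlike on the CPM scale. The reverse held for the pathway genes Slc29a1 and P2ry2, described below, whose groups overlapped in TPM but not in CPM. Slc29a1 was at 136 to 156 TPM in NaCl tumors and 110 to 138 TPM in H89-treated tumors, and P2ry2 at 23.5 to 27.7 against 20.6 to 25.2 TPM.

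Part of the spread between tumors lay within the NaCl group. P2ry6, P2ry12, P2rx7, Entpd1 and Ada, 5 of the 10 genes, had their lowest CPM in NaCl tumor 1. The share of all genes tested that were lowest in that tumor was not counted, so this number is a description only. The summed CPM of 10 macrophage markers was lowest in NaCl tumor 1 too, at 1270, against 1840 and 2070 in the other NaCl tumors and 1690 to 2000 in H89-treated tumors. The part of macrophage content in these values was not tested. In whole tumors, fewer cells of a type and less RNA per cell cannot be told apart.

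Of 52 other tested genes of the pathway, taken from lists of receptors, ectonucleotidases, release channels, transporters, salvage enzymes, UDP-sugar enzymes, G protein alpha subunits and the inflammasome branch of P2rx7, 1 was called, and it was lower in H89-treated tumors. Their median log2 fold change was 0.11, and 9 had H89-treated tumors all above and 7 all below the NaCl tumors. These 16 genes are 30.8% of the 52, close to the 30.7% over all genes tested.

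Among the other P2 receptors, P2rx3, the ATP-gated channel of sensory neurons, was the called gene. It was at 6.77, 8.69 and 14.0 CPM in NaCl tumors and at 3.60, 3.86 and 2.77 CPM in H89-treated tumors, with no overlap. Its mean fell from 9.81 ± 3.73 to 3.41 ± 0.572 CPM (SD over 3 tumors per group). The log2 fold change was -1.52 (SE 0.29, 95% interval -2.18 to -0.86, edgeR adjusted p = 0.0488). The call was lost with any single tumor left out (edgeR adjusted p 0.0776 to 0.142), in fits that called only 0 to 12 of all genes tested. In GENCODE M21, exons of P2rx3 (chr2:84998583-85037462, minus strand) overlap those of Ssrp1, a histone chaperone gene at 378 to 429 CPM in NaCl tumors and 273 to 328 CPM in H89-treated tumors (log2 fold change -0.44, SE 0.10, edgeR adjusted p = 0.0691), so reads of the shared exons could belong to either gene. Every deposited value of P2rx3 was a whole count, and the part of Ssrp1 in it was not tested.

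P2ry2, the ATP and UTP receptor and the most abundant of the other P2Y genes, was at 31.5 to 36.1 CPM in NaCl tumors and at 23.1 to 27.6 CPM in H89-treated tumors, without overlap (log2 fold change -0.37, SE 0.10, edgeR adjusted p = 0.0953). The lymphoid receptors P2ry10 and P2ry10b were also not called, with log2 fold changes of 1.10 (SE 0.36, edgeR adjusted p = 0.123) and 0.81 (SE 0.28, edgeR adjusted p = 0.133) and no overlap between groups. Without H89-treated tumor 3, which held the highest value of P2ry10, its log2 fold change was 0.66. P2rx5 was under the filter, with 1, 3 and 2 counts in NaCl tumors and 14, 11 and 11 counts in H89-treated tumors. Adora3, a Gi-coupled adenosine receptor, was at 1.57 to 2.65 CPM over both groups.

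The nucleoside transporters, which move adenosine across membranes, had 4 of 5 tested genes without overlap between groups, where 30.7% of all genes tested did not overlap, and 0 were called by edgeR (4 at an unadjusted p under 0.05, as were 25% of all genes tested). Slc29a1, the equilibrative transporter of the plasma membrane, was at 195, 202 and 181 CPM in NaCl tumors and at 134, 154 and 132 CPM in H89-treated tumors (log2 fold change -0.46, SE 0.09, 95% interval -0.68 to -0.24, edgeR adjusted p = 0.0563). Slc28a2, the concentrative transporter of purine nucleosides, was at 4.93, 7.91 and 5.52 CPM against 11.8, 11.6 and 18.4 CPM (log2 fold change 1.19, SE 0.25, 95% interval 0.61 to 1.76, edgeR adjusted p = 0.0604). Slc29a3, the lysosomal and mitochondrial member, was at 26.9 to 33.4 CPM against 37.8 to 42.5 CPM (log2 fold change 0.45, SE 0.11, edgeR adjusted p = 0.0729). Slc28a3 was at 0.336 to 0.504 CPM against 0.760 to 1.03 CPM (log2 fold change 1.00, SE 0.30, edgeR adjusted p = 0.108), whereas Slc29a2 overlapped between groups with a log2 fold change of 0.03. Hence, on the CPM scale, Slc29a1 lay lower and the 3 others higher in every H89-treated tumor, at adjusted p values above the threshold. By DESeq2's Wald test, which called 10.4% of the genes it tested, Slc29a1, Slc28a2 and Slc29a3 had adjusted p values of 0.000618, 0.000288 and 0.0183 and Slc28a3 one of 0.232.

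**Figure D4:**
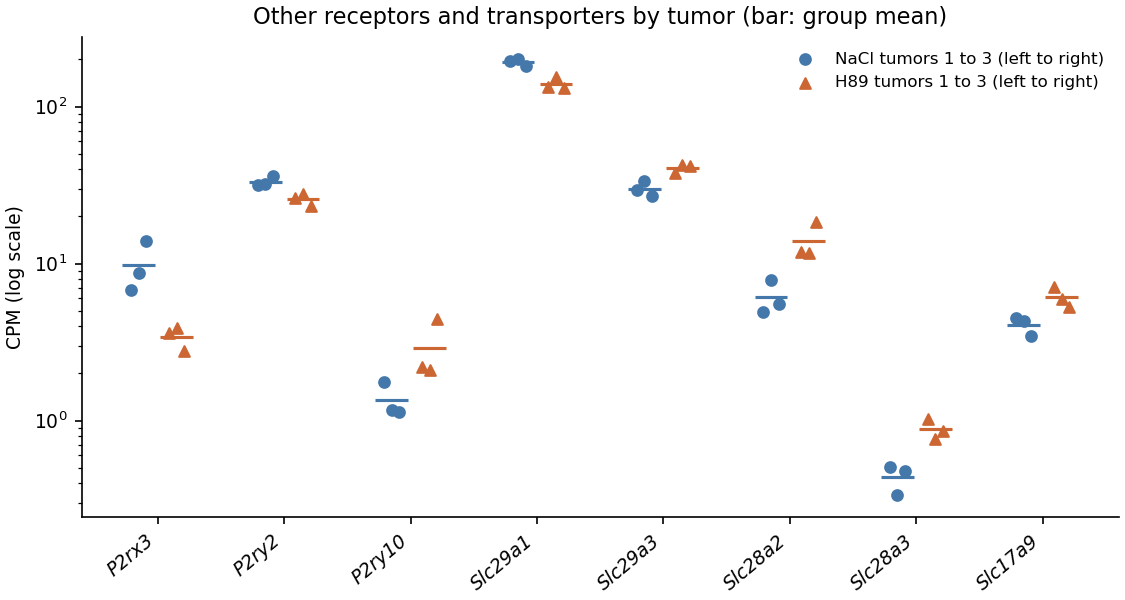
CPM on a log axis for P2rx3, P2ry2, P2ry10, 4 nucleoside transporters and Slc17a9, with 1 point per tumor and a bar at each group mean. P2rx3, at 2.77 to 3.86 CPM in H89-treated tumors, is the only one of them with an edgeR adjusted p under 0.05.

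The remaining lists held no gene called by edgeR. Among release proteins, Lrrc8a, a subunit of the volume-regulated anion channel, was at 55.5 to 60.3 CPM in NaCl tumors and at 40.4 to 46.7 CPM in H89-treated tumors (log2 fold change -0.44, SE 0.09, edgeR adjusted p = 0.0523). Slc17a9, which loads vesicles with ATP, was at 3.44 to 4.50 CPM against 5.32 to 7.13 CPM (log2 fold change 0.59, SE 0.19, edgeR adjusted p = 0.117), while the abundant connexin Gja1 overlapped with a log2 fold change of -0.03. Of the other ectonucleotidases, Acpp alone did not overlap between groups (log2 fold change 0.71, SE 0.29, edgeR adjusted p = 0.182), and the most abundant, Bst1, had a log2 fold change of 0.17. Dpp4 was at 0.298 to 0.684 CPM in NaCl tumors and at 0.943 to 1.75 CPM in H89-treated tumors (log2 fold change 1.43, SE 0.38, edgeR adjusted p = 0.0861). Ahcy, which frees adenosine from S-adenosylhomocysteine, had a log2 fold change of -0.35 (SE 0.15, edgeR adjusted p = 0.19), and the adenosine kinase Adk one of -0.01. All 5 listed enzymes of UDP-sugar metabolism overlapped between groups, and the most abundant, Ugdh, had a log2 fold change of 0.08. The only negative estimate among them was that of Uxs1, at -0.31 (SE 0.11, edgeR adjusted p = 0.143). By DESeq2's Wald test, the adjusted p was 0.00131 for Lrrc8a, 0.0855 for Slc17a9, 0.39 for Acpp, 0.0549 for Dpp4 and 0.171 for Ahcy.

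The G protein subunits that carry these signals had 9 tested genes with a median log2 fold change of -0.10. Gnas, the Gs subunit to which the adenosine receptors Adora2a and Adora2b couple, had a log2 fold change of -0.11 (SE 0.11, edgeR adjusted p = 0.542). Gnai2, the Gi subunit of immune cells, was at 765 to 945 CPM in NaCl tumors and at 654 to 708 CPM in H89-treated tumors (log2 fold change -0.34, SE 0.10, edgeR adjusted p = 0.101), and Gna12 had a log2 fold change of -0.29 (SE 0.08, edgeR adjusted p = 0.083), both without overlap. In the inflammasome branch of P2rx7, Casp1, the protease that matures interleukin-1 beta, was at 26.8 to 43.8 CPM against 46.5 to 65.8 CPM (log2 fold change 0.60, SE 0.21, edgeR adjusted p = 0.134), and the groups of Nlrp3, Pycard, Il1b, Il18 and Gsdmd overlapped. DESeq2's Wald test, which called 10.4% of the genes it tested, gave adjusted p values of 0.0162 for Gnai2, 0.00794 for Gna12 and 0.0465 for Casp1.

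**Figure D5:**
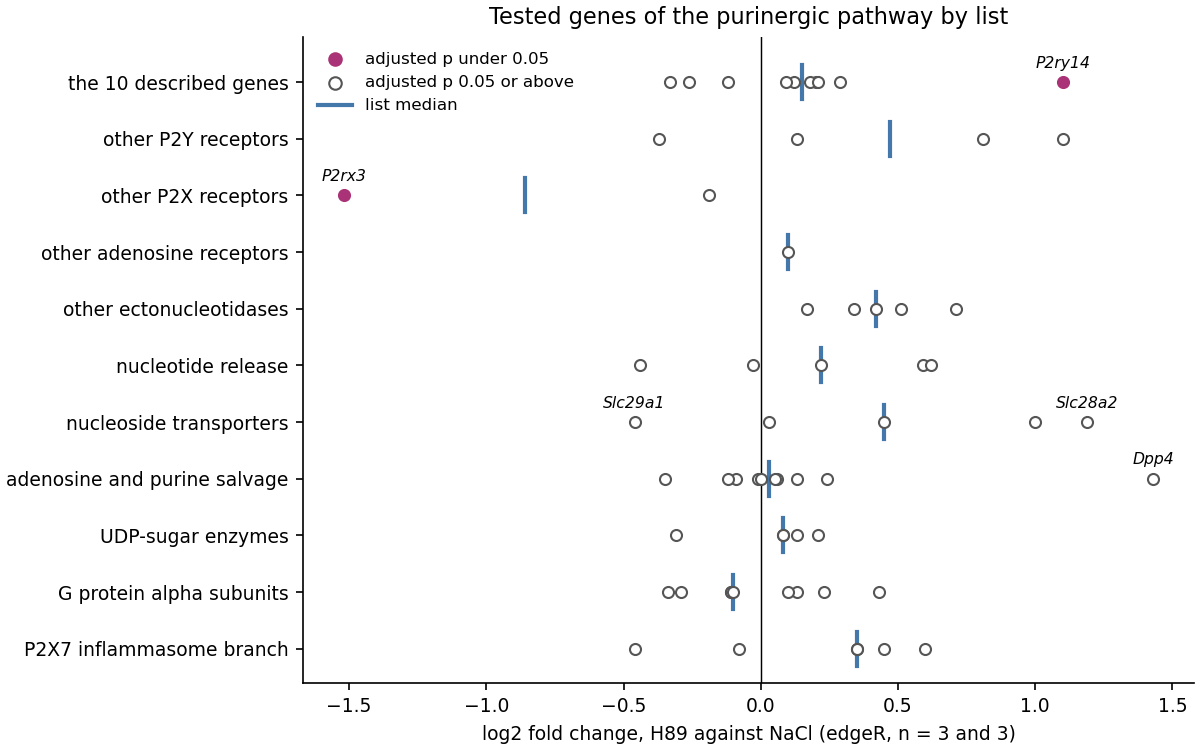
Log2 fold change of H89 against NaCl for each tested gene, 1 row per list (the neighbours on chromosome 3 are not drawn as a list), with a line at each list median. Filled points are the genes with an edgeR adjusted p under 0.05, P2ry14 at 1.10 and P2rx3 at -1.52. The medians of the lists lie within 0.47 of 0 in all drawn rows but that of the other P2X receptors.

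Sums of markers of some other cells did not overlap between groups either. The 9 dendritic cell markers summed to 15.8 to 21.2 CPM in NaCl tumors and to 26.6 to 32.4 CPM in H89-treated tumors. Of the 7 that were tested, 5 had H89-treated tumors all above (Zbtb46, Xcr1, Clec9a, Batf3 and Siglech), as had 15.2% of all genes tested, and 0 were called (smallest edgeR adjusted p 0.0722). The 5 B cell markers summed to 1.40 to 1.87 CPM against 2.32 to 3.44 CPM, and the 5 fibroblast markers to 2170 to 2440 against 2450 to 3140 CPM. The sums of T cell (16.5 to 36.4 against 30.7 to 81.3 CPM), NK cell (11.6 to 48.0 against 39.8 to 97.0 CPM) and neutrophil markers (16.2 to 20.5 against 20.3 to 34.5 CPM, with Ly6g at 0 in every tumor) overlapped. Even so, all 9 T cell and all 5 NK cell markers had positive log2 fold changes, with medians of 1.28 and 1.21. None of them was called (smallest edgeR adjusted p 0.101 and 0.0813). The medians of the tested dendritic cell and fibroblast markers were 0.98 and 0.32. The 4 platelet markers, of cells that carry P2ry12, summed to 28.5 to 44.5 CPM in NaCl tumors and 19.4 to 24.0 in H89-treated tumors. Pf4 and Ppbp had log2 fold changes of -1.14 and -1.02 (edgeR adjusted p = 0.0593 and 0.116), without overlap between groups. Itga2b overlapped between groups, with a log2 fold change of -0.07 (edgeR adjusted p = 0.807), so the lower sum did not hold for every marker. Gp9 was under the filter. Colon epithelium markers summed to 118 to 131 against 86.7 to 101 CPM, mostly from Krt20 and Krt18, which were not called (edgeR adjusted p 0.0627 and 0.0653). The log2 fold changes of the other 4 that were tested were positive (Cdh1 0.05, Krt8 1.03, Cdh17 0.01 and Lgals4 0.25), and the colon markers Vil1 and Cdx2 were under 0.31 CPM in every tumor. The part of these cells in the values of P2ry14 and the other genes was not tested.

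The genes whose log2 CPM followed P2ry14 most closely over the 6 tumors were Tpcn2 (Pearson r = 0.996), Sugp2 (0.995), Arl10 (0.994), Lats2 (0.992) and the transporter Slc29a3 (0.992). All 5 had H89-treated tumors above the NaCl tumors, with log2 fold changes of 0.25 to 0.45, smaller than that of P2ry14. The nearest genes were Fcgr3 for P2ry6 (0.989), Lyl1 for P2ry12 (0.990), Sc5d for P2rx4 (0.988), Zfp799 for P2rx7 (0.991), Arfgef1 for Entpd1 (0.996), Ero1b for Nt5e (0.995), Ptpn18 for Ada (0.980), Pik3r4 for Adora2a (0.992) and Rpl17-ps8 for Adora2b (0.985). Second in likeness were Ehd4 (0.986), Zfp57 (0.987), Rdh11 (0.984), Klhl23 (0.989), Psme4 (0.994), Myo9b (0.992), Ccdc106 (0.976), Zfat (0.983) and Nrbf2 (0.978), in the same order. These correlations were picked as the highest among 13118 genes over 6 tumors that share the same libraries, and they are given as a description.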

How the data were processed

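The authors sequenced total RNA of flash-frozen CT26 tumors (3 NaCl, 3 H89; groups from the sample titles) on the BGISEQ-500 platform, and the submitters' processing notes name kallisto, DESeq2 and GRCm38. The deposited table, called TPM, holds estimated counts: values summed to 27067349 to 31958793 per tumor, and 58.6% to 61.4% of those above 0 lay within 0.01 of a whole number. Counts were rounded and tested with edgeR 4.0.16 (R 4.3.3; TMM, glmQLFit, glmQLFTest, treatment as the only term) for genes with a mean of at least 0.5 CPM. Standard errors came from the size of the log2 fold change over the root of its F statistic. DESeq2 1.42.0 and limma 3.58.1 served as alternatives, and the edgeR script was tested on simulated data. Positions, overlaps and lengths are from GENCODE M21, matched by symbol (23007 of 23557 genes). Of the gene columns, 164 are recorded by name, and 23393 more were read alike.

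The 10 genes, the lists and the tests were chosen with earlier results of these data known. Named are the 10 genes, list genes that were called or did not overlap between groups, the most abundant gene of most pathway lists, neighbours on chromosome 3 (1 is not reported here), and the genes with the highest correlations (5 for P2ry14, 2 for each other gene). Replicate numbers were not taken as pairs: same-numbered tumors had correlated deviations of 0.163, 0.0609 and -0.0249. The mice are separate animals, 3 per group, and no batch is given in the sources used here.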

Additional observations from a re-analysis of the deposited data

How the results depend on the processing

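The number of all genes called, 208 in edgeR's test (113 higher, 95 lower, 54.3% higher), was 88 under quantile normalization with limma (65.9% higher), 1392 by DESeq2's Wald test (45.5% higher), 311 with no filter (46.3% higher) and 0 to 12 with 1 tumor left out. The number of the 10 purinergic and adenosine genes called, 1, was 0 under quantile normalization and 0 whichever tumor was left out. Under quantile normalization P2ry14 had a log2 fold change of 0.88 with a limma adjusted p of 0.0648, and over all 14 alternatives it lay between 0.88 and 1.26. By DESeq2's Wald test, the adjusted p was 0.000107 for P2ry14, 1.78e-05 for P2rx3, 0.0353 for P2ry2, 0.0651 for P2ry10 and 0.176 for P2ry10b. With the replicate number as a block, 0 of all genes and 0 of the 10 genes were called, with 3750 genes at an unadjusted p under 0.05, and P2ry14 had a log2 fold change of 1.11 (edgeR adjusted p = 0.0651). The numbers name tumors and do not pair them. The sign of the log2 fold change turned for P2ry12 (-0.17), Ada (-0.02) and P2ry13 (-0.25) without NaCl tumor 1, for Nt5e (0.12) and Ada (-0.05) without H89-treated tumor 1, for P2ry13 (-0.04) without H89-treated tumor 2, and for Ada (-0.02) and Adora2a (-0.06) under quantile normalization. With 1 tumor left out, the range was -0.45 to -0.12 for P2ry6, -0.17 to 0.46 for P2ry12, 0.07 to 0.16 for P2rx4, 0.02 to 0.29 for P2rx7, 0.01 to 0.46 for Entpd1, 0.01 to 0.49 for Adora2a, -0.57 to -0.17 for Adora2b, -0.46 to 0.12 for Nt5e, -0.05 to 0.27 for Ada and -0.25 to 0.45 for P2ry13. The cause was not tested. With a mean of at least 5 CPM, P2ry12, Adora2a and Adora2b were not tested. Of the single-gene log2 fold changes under these alternatives, 370 kept their direction and side of the threshold, 16 passed it only in an alternative, for Lrrc8a in 5 and Slc29a1 in 4, and 15 passed it only in the reported test, 8 for P2ry14 and 7 for P2rx3. With the longest transcript as length, the mean TPM in NaCl tumors moved beyond the spread between tumors for P2rx4 (18.6 to 25.4) and Nt5e (2.51 to 4.10). Low counts limit Adora2a, with 27 to 62 counts per tumor, and 3 tumors per group limit all genes.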
